A study of Mus musculus with 19 samples.

Results

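Interferon-stimulated genes were followed in lung lavage cells of ICAM-1 null and wild type mice, without exposure and 1 h after inhaled bacterial particles. A list of 39 genes known to be induced by interferon, matched by symbol, was drawn from the 56941 genes of the deposited tables. They comprised 1 interferon, 1 signalling factor, 11 genes of the IFIT, OAS and MX families, 11 other antiviral genes, 2 RNA sensors, 3 HIN-200 genes, 3 IRG GTPases, 4 guanylate-binding proteins (GBP) and 3 antigen processing genes. The GBP genes were described apart from the IFIT, OAS and MX genes. All 39 had a row, and 38 passed the filter on low counts. Ifnb1 was the gene that did not.

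RNA was sequenced from bulk cell pellets of bronchoalveolar lavage in 19 female mice aged 7 to 8 weeks. The 4 groups were exposed ICAM-1 null (n = 5), exposed wild type (n = 5), naive ICAM-1 null (n = 5) and naive wild type (n = 4). Wild type mice were C57Bl/6J, and null mice lacked ICAM-1, an endothelial and leukocyte adhesion molecule. The sources used here give neither the genetic background of the null line nor any use of littermates. Effects of ICAM-1 loss and of other differences between the lines cannot be told apart. Exposed mice received 100 µL of Staphylococcus aureus bioparticles carrying the acid-sensitive dye pHrodo, at 2.27 mg/mL, by aspiration from the oropharynx under isoflurane, and all mice were lavaged with saline containing 2 mM EDTA. The sources used here do not say if naive mice had an aspiration of vehicle or anaesthesia. The labels call the cells alveolar macrophages and describe no sort or gate, so fewer cells of a type and less RNA per cell cannot be told apart.

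Interferon-stimulated genes are switched on when type I or type II interferon binds its receptor on the cell surface. Type I interferon activates JAK kinases that phosphorylate STAT proteins, among them STAT2, which join IRF9 and bind the interferon-stimulated response element. Type II interferon acts through the gamma-activated site, which is prominent among GBP, IRG and antigen processing genes, and some members also respond to NF-kB or to IRF3 directly, without interferon. In the lung these genes restrain viruses and, for the GBP and IRG families, bacteria and parasites held in vacuoles.

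Libraries held 32.8 to 80.3 M estimated counts, with wild type naive libraries 1, 2 and 3 at 32.8, 37.0 and 41.0 M. Levels are given in TPM, which the authors scaled for gene length and library total. Log2 fold changes come from edgeR on the estimated counts with TMM scaling, and the words rose, fell and differed are kept for a Benjamini-Hochberg adjusted p under 0.05 over all 20501 genes tested. The edgeR test gives no standard error (SE). Each SE was therefore derived as the absolute log2 fold change divided by the square root of the F statistic of its test, and is approximate. These scales differed on exposure. The median log2 fold change of all genes in wild type mice was 0.02 in edgeR and -0.22 on the log2(TPM + 1) scale, where 21.1% of the changed genes were higher against 49.9% in edgeR. A TPM level of an exposed group therefore reads low beside the edgeR change. A signed or unsigned number given for a gene without a unit is an edgeR log2 fold change, and gene positions are on build GRCm39. Icam1 stood at 9.48 to 13.2 TPM in exposed null against 722.5 to 1079 TPM in exposed wild type libraries. Tnf, an early cytokine gene, was higher in every exposed than in every naive library (5716 to 10113 against 45.0 to 83.2 TPM). The 14 alveolar macrophage markers, such as Marco, Siglecf and Chil3, summed to between 26479 and 35379 TPM in all libraries.

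Promoter windows of 5 members are shown because these genes carry the main contrasts below. Ifit1 is a classical type I target, Ifi205 and Ifi202b had the steepest rises, and Gbp5 and Gbp7 are neighbours that moved in opposite directions. Each window runs from 250 bases before to 50 bases after the RefSeq start on build GRCm38.p6, 5′ to 3′ on the gene's strand. Capitals mark matches to the motifs named after the sequences. The positions are chr19:34640639-34640938 (plus strand) for Ifit1, chr1:174031706-174032005 (minus) for Ifi205, chr1:173982795-173983094 (minus) for Ifi202b, chr3:142496684-142496983 (plus) for Gbp5 and chr3:142530086-142530385 (plus) for Gbp7.
Ifit1: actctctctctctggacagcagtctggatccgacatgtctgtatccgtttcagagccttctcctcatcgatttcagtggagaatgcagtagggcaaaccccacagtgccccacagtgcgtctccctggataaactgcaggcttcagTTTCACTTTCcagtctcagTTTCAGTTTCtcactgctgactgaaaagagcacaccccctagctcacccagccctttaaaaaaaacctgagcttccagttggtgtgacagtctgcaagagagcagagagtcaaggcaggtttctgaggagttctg
Ifi205: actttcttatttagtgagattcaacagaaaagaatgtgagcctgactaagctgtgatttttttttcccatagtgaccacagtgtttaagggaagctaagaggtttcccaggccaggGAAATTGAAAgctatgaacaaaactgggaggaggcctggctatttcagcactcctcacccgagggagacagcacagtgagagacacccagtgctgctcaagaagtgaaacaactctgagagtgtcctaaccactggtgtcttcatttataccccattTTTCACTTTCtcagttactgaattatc
Ifi202b: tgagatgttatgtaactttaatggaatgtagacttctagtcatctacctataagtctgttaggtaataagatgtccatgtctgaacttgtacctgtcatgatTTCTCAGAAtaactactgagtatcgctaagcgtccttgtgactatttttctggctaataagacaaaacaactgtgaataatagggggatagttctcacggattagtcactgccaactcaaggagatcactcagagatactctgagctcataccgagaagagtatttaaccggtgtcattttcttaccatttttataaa
Gbp5: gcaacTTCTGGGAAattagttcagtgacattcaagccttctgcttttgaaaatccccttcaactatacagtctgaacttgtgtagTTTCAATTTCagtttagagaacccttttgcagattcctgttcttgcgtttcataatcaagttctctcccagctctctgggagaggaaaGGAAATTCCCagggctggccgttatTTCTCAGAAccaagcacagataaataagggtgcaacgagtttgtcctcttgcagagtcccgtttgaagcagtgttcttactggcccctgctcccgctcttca
Gbp7: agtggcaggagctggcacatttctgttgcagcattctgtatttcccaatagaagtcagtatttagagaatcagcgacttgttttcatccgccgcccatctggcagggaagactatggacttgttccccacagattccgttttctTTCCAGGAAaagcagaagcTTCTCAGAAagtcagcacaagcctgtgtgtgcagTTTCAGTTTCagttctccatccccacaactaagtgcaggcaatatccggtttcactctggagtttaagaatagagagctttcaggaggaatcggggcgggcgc

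The motifs were searched on both strands. The response element core was GAAA, any 2 bases and GAAA, and the gamma-activated site was TTCNNNGAA. The NF-kB site was searched by its consensus, which is not spelled out here and which matched GGAAATTCCC in Gbp5. Of the 39 members, 32 had a window in the RefSeq table. The response element core was found in 18 of these 32, against 3.99% of all 27025 genes with a window, and in all 4 GBP genes and 5 of the 8 IFIT, OAS and MX genes with a window. The gamma-activated site was found in 10 of 32 members, including Gbp5, Gbp7 and Ifi202b, and in 9.55% of all genes with a window. The NF-kB consensus was found in Ifnb1, Oasl1, Bst2 and Gbp5, 4 of 32 members, and in 5.14% of all genes with a window. In Bst2 the motifs overlapped each other. The 300 bases of Gbp5 held all 3 motifs and those of Gbp7 the first 2, while the Ifi202b window held a gamma-activated site alone. A match describes the letters of the window, and binding was not measured.

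In naive wild type libraries the levels of the members differed widely. Psmb8, an inducible catalytic subunit of the immunoproteasome, was the most abundant at 173 ± 16.5 TPM (SD, n = 4), followed by Bst2, which tethers budding virions to the cell surface, at 133 ± 8.98 TPM. Psmb9, the partner subunit of Psmb8, stood at 81.2 ± 4.20 TPM and Ifi35 at 77.5 ± 1.71 TPM, and the ranges of Psmb9 (77.2 to 87.0 TPM) and Ifi35 (76.1 to 79.8 TPM) overlapped. Stat2 (46.1 ± 7.58 TPM), Tap1 (35.9 ± 3.31 TPM) and Gbp7 (27.9 ± 3.42 TPM) came next. IFIT, OAS and MX genes were low with the exception of Oas1a at 19 ± 1.17 TPM, the other 10 averaging between 0.403 TPM for Mx2 and 3.54 TPM for Ifit3. Taken over the 4 groups, the highest group mean was at 100 TPM or more for 2 members, at 10 to 100 TPM for 17, at 1 to 10 TPM for 17 and under 1 TPM for 3 (Ifnb1, Mx2 and Ifi44).

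**Figure D1:**
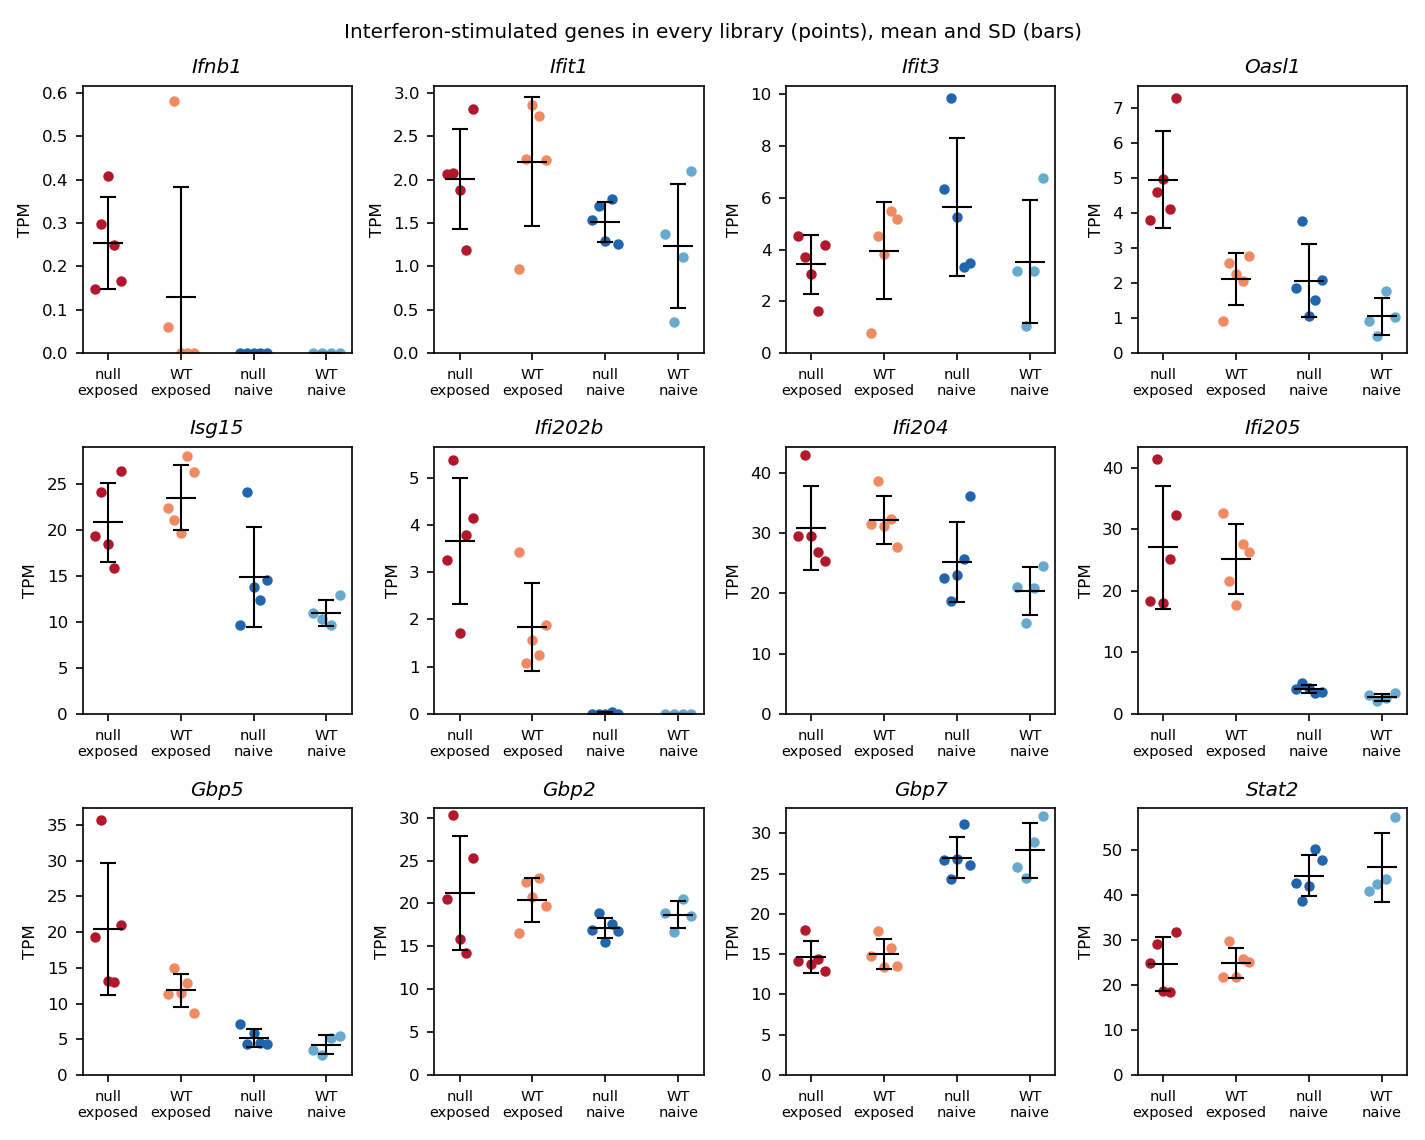
TPM of 12 members in every library (points), with mean and SD (bars), in ICAM-1 null exposed, wild type exposed, ICAM-1 null naive and wild type naive mice; each panel has its own scale starting at 0. Ifi205, Ifi202b and Gbp5 lie higher in every exposed than in every naive library, Gbp7 and Stat2 lie lower, and Ifit3 overlaps between all groups.

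The exposure comparison asked how these genes stand 1 h after the particles arrive. The response was split: the HIN-200 genes, Gbp5, Gbp2, Oasl1, Isg15 and Isg20 rose, whereas Stat2, Gbp7, Irgm1, Xaf1, Ddx60 and Psmb9 fell, and most of the IFIT, OAS and MX genes did not pass the test. In null mice 9 of 38 members rose and 8 fell, against 21.4% of all tested genes higher and 23.4% lower. In wild type mice 11 rose and 6 fell, against 20.1% of all tested genes higher and 20.2% lower. The share of members called in either direction was thus near that of all genes (44.8% in null and 40.2% in wild type mice). The edgeR exposure counts of families, pathway lists and marker lists below stand beside these same shares of all tested genes. The members' median log2 fold change was -0.06 in null and 0.34 in wild type mice, against 0.02 over all genes in each. Every exposed library lay above every naive library in TPM for 5 members and below for 8 in null mice (8% and 32.7% of all tested genes), and above for 7 and below for 12 in wild type mice (8.2% and 32% of all tested genes). In CPM after TMM scaling the same counts were 5 and 3 in null mice (16.1% and 18.4% of all tested genes) and 10 and 6 in wild type mice (16.6% and 16.8%). On the log2(TPM + 1) scale limma called 6 members higher and 14 lower in null mice (10.9% and 41% of all tested genes) and 9 higher and 15 lower in wild type mice (11% and 41%). The 9 genes that rose in null mice were all among the 11 of wild type mice (Ifit1 and Usp18 were the others), and the 6 that fell in wild type mice were all among the 8 of null mice (Rigi and Igtp were the others). No member passed the interaction test, so these 4 genes are not shown to respond differently. With naive wild type libraries 1, 2 and 3, the shallowest, left out together, an alternative chosen after seeing the data, 5 members rose in wild type mice, where 8.09% of 23753 tested genes were higher and 9.81% lower. The wild type calls of Ifit1 (0.41), Usp18 (0.66), Ifih1 (0.32), Ifi204 (0.74), Oasl1 (1.37), Irgm1 (-0.41), Gbp2 (0.49) and Psmb9 (-0.38) were lost, the last 4 with values within 0.06 of those with all libraries.

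**Figure D2:**
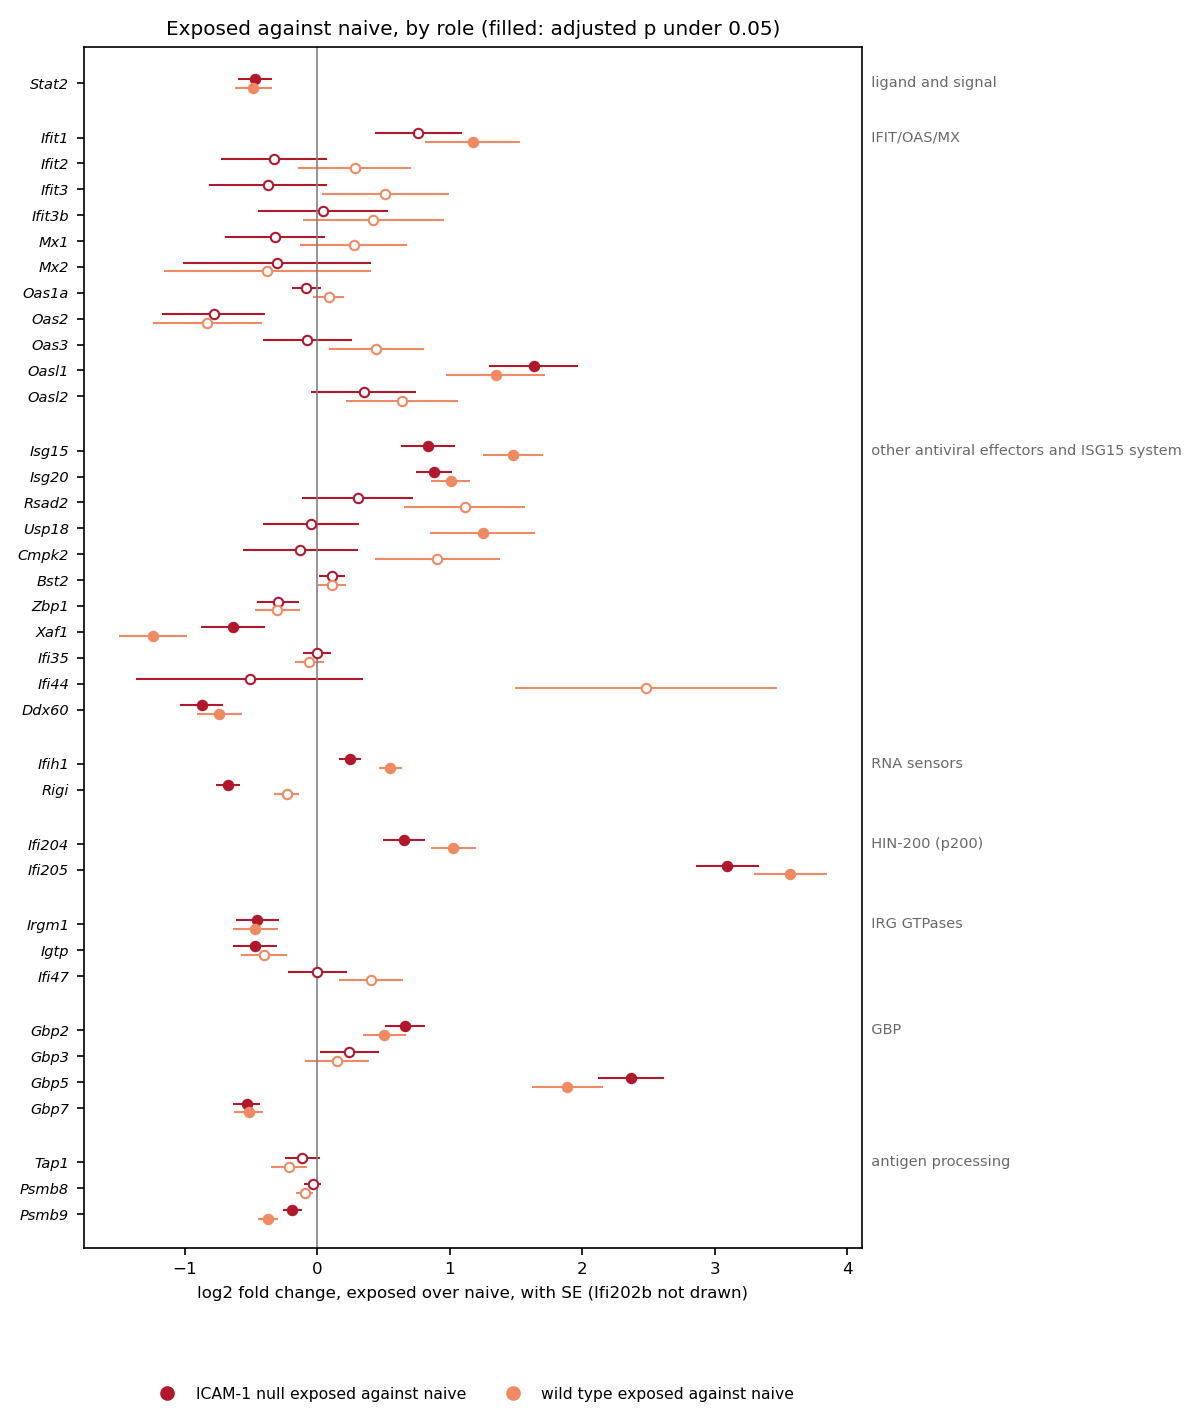
Log2 fold change of exposed over naive libraries with its SE for 37 members, grouped by role, in ICAM-1 null and wild type mice; filled points passed an adjusted p under 0.05. Ifi205 lies farthest to the right, followed by Ifi44 in wild type mice, which is open, and by Gbp5, and the IFIT, OAS and MX genes are mostly open and spread about 0 (Ifi202b, at 0 in naive wild type libraries, is not drawn, and Ifnb1 was not tested).

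Markers of other cells also moved on exposure. Of all tested genes 21.4% rose and 23.4% fell in null mice, and 20.1% and 20.2% in wild type mice. Of 10 airway and alveolar epithelial markers 7 rose in null and 8 in wild type mice, with 0 lower, and their summed level was 790 to 1389 TPM in exposed against 489 to 741 TPM in naive null libraries, and 1266 to 3612 TPM in exposed against 611 to 791 TPM in naive wild type libraries. All 5 red cell markers rose in wild type mice (370 to 2399 against 134 to 410 TPM) and 0 in null mice (129 to 351 against 97.6 to 352 TPM). Neutrophil markers summed to 125 to 188 TPM in exposed and 170 to 185 TPM in naive null libraries. In wild type mice they summed to 86.0 to 117 TPM in exposed and 66.9 to 94.1 TPM in naive libraries. Of 7 tested, 2 rose and 1 fell in null mice and 4 rose and 1 fell in wild type mice. Among these markers Ngp and Camp, picked after their values were seen, were the low ones. The granule gene Ngp was at 0 in all libraries but 2 of exposed wild type mice, and Camp was at 0 in all exposed libraries. The sums therefore rest on other genes of the list. Of 8 markers of plasmacytoid dendritic cells, which are major producers of type I interferon, 6 were tested. Of these, 1 rose and 1 fell in null mice and 0 rose and 1 fell in wild type mice. The 8 summed to 17 to 22.2 TPM in exposed null and 22.3 to 30.2 TPM in exposed wild type libraries. In naive libraries they summed to 27.6 to 32.7 TPM in null and 35.3 to 44.7 TPM in wild type mice. Siglech, 1 of the 8 and picked after its values were seen, was low, so the sums rest on other genes of the list. It was at 0.05 to 0.75 TPM in exposed null and 0 to 0.47 TPM in exposed wild type libraries. In naive libraries it was at 0.07 to 0.29 TPM in null and 0 to 0.25 TPM in wild type mice. Of the alveolar macrophage markers 5 of 14 rose and 2 fell in null mice and 9 rose and 3 fell in wild type mice. Dendritic cell markers rose for 5 of 7 in each genotype (14.8 to 29.7 TPM summed in exposed against 7.42 to 13.3 TPM in naive null, and 23 to 39.7 against 8.23 to 16.5 TPM in wild type libraries), and T and NK cell markers for 4 of 9 in null and 7 of 9 in wild type mice. Of 8 monocyte and interstitial macrophage markers 4 rose and 1 fell in null mice (33 to 49.5 TPM summed in exposed against 27.2 to 39.2 TPM in naive libraries), and 6 rose and 0 fell in wild type mice (40.6 to 61.1 against 28.6 to 47.2 TPM). Of 5 endothelial markers 2 rose in null mice (5.85 to 9.44 against 5.08 to 8.56 TPM) and 3 in wild type mice (7.97 to 12.2 against 6.52 to 9.52 TPM). The part of these cells in the changes of the members was not tested.

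Among the ligands, interferon itself was scarcely detected. Ifnb1 (interferon beta; chromosome 4, 88440262 to 88441011 on GRCm39) held 4, 8, 10, 7 and 4 estimated counts in exposed null libraries 1 to 5 and 2, 12, 0, 0 and 0 in exposed wild type libraries 1 to 5. It held 0 in all 5 naive null and all 4 naive wild type libraries. Each of these values is at or under the floor of 12 counts (3 sequenced fragments, on the assumption that 1 is worth 4 counts), so no fold is given. Of 20 other interferon genes, 18 did not pass the filter. Ifnk, interferon kappa, rose in null mice with 2.50 (SE 0.91, adjusted p = 0.029), at 1.00 to 2.09 TPM in exposed against 0 to 0.76 TPM in naive null libraries. In wild type mice it gave 2.17 (SE 0.98, adjusted p = 0.084), at 0.81 to 1.88 TPM in exposed and 0 to 1.31 TPM in naive libraries. Ifnk passed the filter but was low, at 2.09 TPM or less in every library. Its counts are not given here beside the floor, so the size of its rise is uncertain. Ifng, the type II interferon, did not pass in either genotype (-0.04 in null and 0.28 in wild type mice).

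Stat2 (chromosome 10, 128106428 to 128128718), the STAT protein specific to type I signalling, stood at 24.8, 29, 18.8, 18.5 and 31.9 TPM in exposed null and 42.7, 38.8, 42.1, 50.1 and 47.7 TPM in naive null libraries. Stat2 stood at 21.9, 29.8, 21.9, 25.9 and 25.2 TPM in exposed wild type and 41, 42.6, 43.6 and 57.4 TPM in naive wild type libraries. Every exposed library lay below every naive library of its genotype in TPM, whereas in CPM after TMM scaling the null groups overlapped (40.5 to 67.9 in exposed and 65.9 to 80.7 in naive libraries) and the wild type groups did not. Stat2 fell by 0.47 on the log2 scale in null mice (SE 0.13, adjusted p = 0.0054) and by 0.48 in wild type mice (SE 0.14, adjusted p = 0.0076). Irf9, its DNA-binding partner, which the naming rule did not select, had log2 fold changes of -0.13 in null and -0.16 in wild type mice, neither passing.

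Other genes of the signalling chain moved in both directions. Of 11 receptor and JAK-STAT genes, 5 rose and 3 fell in null mice and 5 rose and 1 fell in wild type mice. Their log2 fold changes ran from -0.48 to 2.22 in null and from -0.35 to 2.27 in wild type mice. Those named here, with the smallest adjusted p, all rose. Jak2, a receptor kinase, rose with a log2 fold change of 2.22 (SE 0.18) in null and 2.27 (SE 0.20) in wild type mice, and the type I receptor chain Ifnar1 with 0.96 and 0.64. Il10rb, a chain shared by the receptors of interferon lambda and IL-10, rose with 0.72 and 0.75. Ifnar2, the other type I chain, rose with 0.62 and 0.35, and the kinase gene Jak1 with 0.73 and 0.67. Of 9 inhibitor genes 5 rose and 0 fell in each genotype. Socs3, a feedback inhibitor of cytokine receptors that is also induced by IL-6 and IL-10, rose most, at 450 to 714 TPM in exposed and 7.55 to 13.5 TPM in naive null libraries and at 454 to 648 TPM in exposed and 11.9 to 13.4 TPM in naive wild type libraries (5.90, SE 0.16, and 5.81, SE 0.18). Socs1 (1.55 and 1.14), which binds JAK kinases, and the phosphatase genes Ptpn2 (1.21 and 1.22) and Ptpn11 (0.49 and 0.39) rose as well.

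IFIT, OAS and MX genes encode RNA-binding and nucleotide-synthesising proteins and dynamin-like GTPases that block viral replication. In null mice 1 of 11 rose, 0 fell and 10 did not pass, and in wild type mice 2 rose, 0 fell and 9 did not pass. Of all tested genes edgeR called 21.4% higher and 23.4% lower in null and 20.1% and 20.2% in wild type mice. Over all 38 members DESeq2 called 10 higher and 7 lower in null mice (23.4% and 23.5% of all tested genes) and 12 higher and 6 lower in wild type mice (21.9% and 20.9%). At an unadjusted p under 0.05 edgeR gave 10 higher and 8 lower in null mice (24.4% and 26.5% of all tested genes) and 13 higher and 8 lower in wild type mice (23.8% and 23.6%). The median log2 fold change of the 11 was -0.08 in null and 0.42 in wild type mice, against 0.02 over all genes in each. On the log2(TPM + 1) scale it was -0.25 and 0.06, against -0.19 and -0.22 over all genes. There limma called 1 higher and 2 lower in null mice (10.9% and 41% of all tested genes). In wild type mice it called 2 higher and 2 lower (11% and 41%).

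Oasl1 (chromosome 5, 115061299 to 115075974), which in mice represses translation of Irf7, was the member of this group that rose in both genotypes. It stood at 3.81, 4.61, 4.98, 4.11 and 7.30 TPM in exposed null libraries 1 to 5 and at 1.87, 3.79, 1.05, 1.5 and 2.10 TPM in naive null libraries 1 to 5. Oasl1 stood at 0.908, 2.58, 2.26, 2.05 and 2.78 TPM in exposed wild type and 0.924, 0.476, 1.77 and 1.04 TPM in naive wild type libraries. The null groups were separated by a narrow gap, whereas exposed wild type library 1 lay among the naive wild type values. The log2 fold change was 1.63 in null (SE 0.34, adjusted p = 4e-04) and 1.35 in wild type mice (SE 0.37, adjusted p = 0.0061).

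Ifit1 (chromosome 19, 34618271 to 34627409), which binds RNA lacking cap methylation, stood at 2.07, 2.08, 1.88, 1.19 and 2.81 TPM in exposed null and 1.53, 1.69, 1.30, 1.77 and 1.25 TPM in naive null libraries. Ifit1 stood at 0.972, 2.24, 2.85, 2.73 and 2.23 TPM in exposed wild type and 1.37, 0.355, 1.11 and 2.10 TPM in naive wild type libraries. The groups overlapped in both genotypes, with exposed wild type library 1 and naive wild type library 2 the lowest of their groups. In null mice the log2 fold change was 0.76 (SE 0.33, adjusted p = 0.065) and passed when any of naive wild type 2, naive wild type 4, exposed wild type 1 or exposed null 4 was left out (adjusted p = 0.024, 0.049, 0.045 and 0.035). In wild type mice it was 1.17 (SE 0.36, adjusted p = 0.012).

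The 3 genes beside Ifit1 in the 99.3 kb cluster on chromosome 19 did not pass. Ifit2 had log2 fold changes of -0.32 (SE 0.40) in null and 0.28 (SE 0.43) in wild type mice, Ifit3 -0.37 (SE 0.44) and 0.51 (SE 0.48), and Ifit3b 0.04 (SE 0.49) and 0.42 (SE 0.53). Ifit3 and Ifit3b are near-identical copies between which the counting may have split reads. Ifit3 stood at 4.53, 3.71, 3.07, 1.64 and 4.16 TPM in exposed null, 0.787, 4.54, 3.84, 5.48 and 5.16 TPM in exposed wild type, 6.35, 9.87, 5.24, 3.34 and 3.47 TPM in naive null and 3.19, 1.03, 3.18 and 6.75 TPM in naive wild type libraries. The 4 ranges overlapped, and the spread inside each group was several-fold.

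The OAS family genes make 2-5A, the activator of RNase L, or are inactive relatives of those that do. Oas1a (-0.08 in null and 0.09 in wild type mice), Oas2 (-0.78 and -0.83), Oas3 (-0.08 and 0.44) and Oasl2 (0.35 and 0.64) did not pass. Oas2 passed as lower without exposed null library 2 in null mice (-1.08, adjusted p = 0.034) and without exposed wild type library 5 in wild type mice (-1.11, adjusted p = 0.042), and Oasl2 passed as higher in wild type mice without naive library 4 (1.16, adjusted p = 0.045). The sign of Oas1a in wild type mice became negative on the log2(TPM + 1) scale (-0.28, adjusted p = 0.038). The MX genes encode dynamin-like GTPases, which in laboratory strains such as C57BL/6 carry inactivating mutations, and Mx1 (-0.32 in null and 0.27 in wild type mice) and Mx2 (-0.30 and -0.38) did not pass.

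A further list of 33 IFIT, OAS and antiviral genes outside the 39 had 31 tested. Of these, 4 rose and 13 fell in null mice and 6 rose and 12 fell in wild type mice, with median log2 fold changes of -0.19 and -0.07. Pml, the organiser of nuclear bodies, fell by 1.21 on the log2 scale in null and by 1.08 in wild type mice, and Samhd1, which depletes nucleotides, fell by 0.36 and by 0.48. Adar, an RNA-editing enzyme, fell by 0.60 in null and by 0.50 in wild type mice, and Eif2ak2, the RNA-activated kinase PKR, fell by 0.64 and by 0.53. Tor3a (0.38 in null and 0.65 in wild type mice) and Ifitm1 (0.65 and 0.69), a membrane protein that hinders viral entry, rose in both.

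Of the 11 other antiviral genes, 2 rose, 2 fell and 7 did not pass in null mice, and 3 rose, 2 fell and 6 did not pass in wild type mice. The shares of all tested genes were 21.4% higher and 23.4% lower in null and 20.1% and 20.2% in wild type mice. Isg15 (chromosome 4, 156283912 to 156285253), a ubiquitin-like protein attached to others after interferon, stood at 19.3, 24.1, 18.5, 15.8 and 26.5 TPM in exposed null and 9.70, 24.1, 13.9, 12.5 and 14.6 TPM in naive null libraries. Isg15 stood at 22.5, 21.1, 19.7, 28.1 and 26.3 TPM in exposed wild type and 11, 10.4, 9.73 and 13 TPM in naive wild type libraries. The wild type groups did not overlap, while naive null library 2 lay within the exposed null range. Isg15 rose with a log2 fold change of 0.84 in null (SE 0.20, adjusted p = 0.002) and 1.48 in wild type mice (SE 0.23, adjusted p = 1.9e-05).

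Isg20 (chromosome 7, 78563172 to 78570144), an exonuclease that degrades viral RNA, stood at 9.30, 12, 11.7, 11.4 and 12.3 TPM in exposed null and 5.71, 9.02, 7.23, 6.45 and 8.82 TPM in naive null libraries. Isg20 stood at 11.1, 12.5, 11.1, 11.6 and 13.7 TPM in exposed wild type and 8.10, 7.53, 8.03 and 7.09 TPM in naive wild type libraries. Exposed and naive libraries were separated in both genotypes. Its log2 fold change was 0.88 in null (SE 0.14, adjusted p = 2e-05) and 1.01 in wild type mice (SE 0.15, adjusted p = 1.4e-05).

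Usp18, the protease that removes ISG15 and damps type I receptor signalling, stood at 2.07, 2.57, 1.13, 0.591 and 1.74 TPM in exposed null and 1.84, 2.98, 2.38, 1.29 and 2.61 TPM in naive null libraries and gave -0.05 on the log2 scale (SE 0.36, adjusted p = 0.93). In wild type mice Usp18 stood at 1.51, 2.16, 1.91, 2.29 and 2.75 TPM in exposed and 1.52, 0.437, 1.53 and 2.13 TPM in naive libraries and rose by 1.25 on the log2 scale (SE 0.40, adjusted p = 0.016). The TPM ranges overlapped in both genotypes, naive wild type library 2 being the lowest of all. In CPM after TMM scaling every exposed wild type library lay above every naive one, as for 16.6% of all tested genes, and the null groups overlapped. Without naive wild type library 2 the wild type change was 0.99 (adjusted p = 0.058). The wild type call was also lost on the log2(TPM + 1) scale (0.42, adjusted p = 0.15), on the log2(TPM + 0.1) scale (0.71, adjusted p = 0.15) and with the replicate number as a block (1.1, adjusted p = 0.053). Rsad2 (viperin, an antiviral radical enzyme) and its neighbour Cmpk2, a nucleotide kinase, did not pass. Rsad2 had 0.30 in null and 1.11 in wild type mice (adjusted p = 0.59 and 0.058), and passed in wild type mice without naive wild type library 4 (1.41, adjusted p = 0.036), without exposed wild type library 1 (1.27, adjusted p = 0.037) or without exposed null library 4 (1.11, adjusted p = 0.049). Cmpk2 had -0.13 and 0.91, and passed in wild type mice without naive wild type library 4 (1.58, adjusted p = 0.014).

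Xaf1 (chromosome 11, 72192455 to 72204559), an antagonist of the apoptosis inhibitor XIAP, stood at 1.83, 2.25, 1.40, 1.73 and 0.828 TPM in exposed null and 2.59, 3.84, 4.65, 2.30 and 3.38 TPM in naive null libraries. Xaf1 stood at 0.896, 1.74, 1.21, 2.86 and 2.43 TPM in exposed wild type and 4.42, 4.24, 3.63 and 4.46 TPM in naive wild type libraries. Every exposed library was below every naive library of its genotype in TPM, and in CPM after TMM scaling the null groups overlapped. Xaf1 fell by 0.64 on the log2 scale in null mice (SE 0.24, adjusted p = 0.037) and by 1.24 in wild type mice (SE 0.26, adjusted p = 0.00053). The null call was lost without any 1 of 6 null libraries, naive 2 and 5 and exposed 1, 3, 4 and 5 (adjusted p = 0.12, 0.055, 0.054, 0.074, 0.071 and 0.1). Ddx60, a helicase that aids RNA sensing, fell by 0.87 in null (SE 0.16, adjusted p = 0.00014) and by 0.74 in wild type mice (SE 0.17, adjusted p = 0.0015), at 0.54 to 0.84 TPM in exposed and 1.48 to 2.14 TPM in naive null libraries, and 0.61 to 1.11 TPM in exposed and 1.30 to 2.22 TPM in naive wild type libraries. In CPM after TMM scaling the null groups stayed apart and the wild type groups overlapped.

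Bst2 (0.11 in null and 0.11 in wild type mice), Ifi35 (-0.0019 and -0.06), Zbp1 (-0.30 and -0.30) and Ifi44 (-0.51 and 2.48) did not pass. On the log2(TPM + 1) scale Bst2 took the other sign in both genotypes (-0.23 in null and -0.27 in wild type mice, adjusted p = 0.031 and 0.019). Zbp1, a sensor of left-handed nucleic acids that triggers necroptosis, passed as lower in null mice without exposed null library 2 (-0.41, adjusted p = 0.048) and in wild type mice without naive wild type library 3 (-0.45, adjusted p = 0.033). Ifi44, at 0.66 TPM or less in every library, had an adjusted p of 0.051 in wild type mice and passed there without any 1 of exposed wild type 2, naive null 5, exposed null 1 or exposed null 4 (adjusted p = 0.042, 0.022, 0.049 and 0.029). Its wild type groups did not overlap in TPM or in CPM after TMM scaling, exposed libraries being higher. The same held for 8.2% of all tested genes in TPM and 16.6% in CPM.

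The cytosolic RNA sensors, which bind viral RNA and signal to interferon beta, had opposite signs. Ifih1 (MDA5; chromosome 2, 62426142 to 62476599) stood at 41, 45.1, 39.8, 41 and 45.2 CPM (counts scaled by library total and TMM factor) in exposed null and 32.2, 33.8, 35.7, 35.5 and 41.6 in naive null libraries. Ifih1 stood at 38.4, 38.1, 39.6, 39.1 and 41.6 CPM in exposed wild type and 26.8, 23.1, 26.2 and 31.2 CPM in naive wild type libraries. On this scale every exposed wild type library was above every naive wild type library, and in null mice naive library 5 lay within the exposed range. In TPM the groups overlapped in both genotypes, at 12.6 to 14.8 in exposed and 12.8 to 17.3 in naive null libraries and at 12.5 to 14.3 in exposed and 10.5 to 13.2 in naive wild type libraries. Ifih1 rose with 0.25 in null (SE 0.08, adjusted p = 0.016) and 0.55 in wild type mice (SE 0.09, adjusted p = 2.6e-05). On the log2(TPM + 1) scale the sign in null mice turned (-0.05, adjusted p = 0.65) and the wild type call was lost (0.18, adjusted p = 0.11), and in edgeR the null call was lost without naive null library 1 (0.21, adjusted p = 0.05).

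Rigi (RIG-I; chromosome 4, 40203773 to 40239828) stood at 10.3, 10.7, 10.3, 10.3 and 9.16 TPM in exposed null and 22.1, 21.5, 20.7, 21.6 and 19.5 TPM in naive null libraries. Rigi stood at 11.2, 13.6, 14.8, 12.7 and 9.08 TPM in exposed wild type and 18.5, 19.4, 19.1 and 20.7 TPM in naive wild type libraries. The exposed libraries were below the naive ones in both genotypes in TPM, and in CPM after TMM scaling the wild type groups overlapped (19.5 to 28.2 in exposed and 27.5 to 31.6 in naive libraries). Rigi fell by 0.67 on the log2 scale in null mice (SE 0.09, adjusted p = 1.9e-06) and gave -0.23 in wild type mice (SE 0.09, adjusted p = 0.053), where it passed without naive wild type library 1, exposed wild type library 3 or exposed null library 5 (adjusted p = 0.045, 0.023 and 0.049).

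Of 21 genes of nucleic acid sensing upstream of interferon beta, 11 rose and 7 fell in null mice and 10 rose and 4 fell in wild type mice. Their log2 fold changes ran from -0.86 to 2.84 in null and from -0.84 to 3.01 in wild type mice. Those named here, with the smallest adjusted p, all rose. Tbk1, the kinase of IRF3, rose with 1.02 (SE 0.06) in null and 1.06 (SE 0.07) in wild type mice. Its scaffold Tank rose with 1.72 and 2.01, the adaptor Ticam1 (TRIF) with 1.79 and 1.49, and the transcription factor Irf5 with 1.96 and 1.57.

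The HIN-200 genes, a cluster of 284.52 kb on chromosome 1 whose products bind DNA and include inflammasome and interferon sensors, all rose in both genotypes. Ifi205 (chromosome 1, 173839564 to 173859376) stood at 18.3, 41.4, 18, 25.2 and 32.4 TPM in exposed null and 4.02, 4.99, 4.17, 3.41 and 3.54 TPM in naive null libraries. Ifi205 stood at 32.7, 21.6, 17.7, 27.6 and 26.3 TPM in exposed wild type and 3.04, 2.08, 2.54 and 3.36 TPM in naive wild type libraries. The lowest exposed library stood at 17.7 TPM and the highest naive library at 4.99 TPM, so the groups were far apart. The log2 fold change was 3.09 in null (SE 0.24, adjusted p = 8e-10) and 3.57 in wild type mice (SE 0.27, adjusted p = 9.6e-10).

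Ifi202b (chromosome 1, 173790134 to 173810310), which binds DNA and inhibits the AIM2 inflammasome, stood at 3.27, 5.38, 1.71, 3.79 and 4.16 TPM in exposed null libraries and at 3.43, 1.09, 1.57, 1.24 and 1.89 TPM in exposed wild type libraries. In naive mice it was at 0 in all 4 wild type libraries and in 4 of 5 null libraries, and null library 4 held 0.05 TPM, or 4 counts. It rose in both genotypes (adjusted p = 1.6e-08 in null and 3.9e-07 in wild type mice). In null mice the ratio was 360-fold with an exact 95% interval from 64.0 to 14268, which covers counting error only. In wild type mice it was at least 7.67-fold higher, against the floor of 12 counts per library. The HIN-200 family holds close copies, so the Ifi202b counts may include reads of related genes. The promoter window above held a gamma-activated site and no response element core, unlike that of Ifi205, which held 2 cores.

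Ifi204 (chromosome 1, 173574859 to 173594509), a DNA sensor acting through STING, stood at 29.6, 42.9, 29.5, 26.8 and 25.3 TPM in exposed null and 22.5, 18.7, 23.1, 25.7 and 36.2 TPM in naive null libraries. Ifi204 stood at 31.4, 38.6, 31.1, 32.3 and 27.7 TPM in exposed wild type and 21, 15.1, 20.9 and 24.6 TPM in naive wild type libraries. The wild type groups did not overlap, and naive null libraries 4 and 5 lay within the exposed null range. The log2 fold change was 0.65 in null (SE 0.16, adjusted p = 0.0018) and 1.03 in wild type mice (SE 0.17, adjusted p = 5.2e-05), and the null call was lost on the log2(TPM + 1) scale (0.29, adjusted p = 0.14). Of 9 other genes of the family 4 rose and 0 fell in null and 5 rose and 0 fell in wild type mice, led by Ifi211 (3.37 in null and 3.49 in wild type mice) and Mndal (2.61 and 2.20), with Ifi203 (2.40 and 1.78) and Ifi207 (1.38 and 1.61). The family holds close copies, so reads may have been split between them.

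The GBP genes, described apart from the IFIT, OAS and MX genes, encode large GTPases that coat and open vacuoles holding bacteria and promote inflammasome activation. The 4 members lie on the plus strand within 144.03 kb of chromosome 3 (142199739 to 142343769), in the order Gbp5, Gbp7, Gbp3, Gbp2. In each genotype 2 rose, 1 fell and 1 did not pass, with a median log2 fold change of 0.45 in null and 0.33 in wild type mice. The shares of all tested genes were 21.4% higher and 23.4% lower in null and 20.1% and 20.2% in wild type mice. On the log2(TPM + 1) scale 1 rose and 1 fell in each genotype. Of all tested genes 10.9% and 41% did so there in null and 11% and 41% in wild type mice. The medians there were 0.04 in null and -0.03 in wild type mice, against -0.19 and -0.22 over all genes.

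Gbp5 (chromosome 3, 142199739 to 142228105), which promotes NLRP3 inflammasome assembly, stood at 19.3, 35.7, 13.2, 12.9 and 21 TPM in exposed null and 7.11, 4.30, 5.81, 4.49 and 4.28 TPM in naive null libraries. Gbp5 stood at 11.3, 15, 11.5, 12.9 and 8.67 TPM in exposed wild type and 3.50, 2.78, 5.21 and 5.45 TPM in naive wild type libraries. Every exposed library was above every naive library, and exposed null library 2 was far above the other 4 of its group. Gbp5 rose with a log2 fold change of 2.37 in null (SE 0.25, adjusted p = 9.3e-08) and 1.89 in wild type mice (SE 0.27, adjusted p = 8e-06).

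Gbp7 (chromosome 3, 142236103 to 142255910), the next gene, moved the other way. It stood at 14.2, 18.1, 13.7, 14.4 and 12.9 TPM in exposed null and 26.7, 24.3, 26.8, 31.1 and 26.1 TPM in naive null libraries. Gbp7 stood at 14.8, 17.9, 13.4, 15.7 and 13.5 TPM in exposed wild type and 25.9, 24.5, 29 and 32.2 TPM in naive wild type libraries. Every exposed library was below every naive library. Gbp7 fell by 0.53 on the log2 scale in null (SE 0.10, adjusted p = 0.00022) and by 0.52 in wild type mice (SE 0.11, adjusted p = 0.00062).

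Gbp2 (chromosome 3, 142326363 to 142343769) stood at 30.4, 46, 23.8, 21.6 and 38.5 CPM after TMM scaling in exposed null and 19.8, 22.3, 19.1, 20.8 and 19.2 in naive null libraries. Gbp2 stood at 25.5, 31.3, 28.3, 33.6 and 31.3 CPM in exposed wild type and 21.3, 18.7, 23.4 and 21.1 CPM in naive wild type libraries. On this scale the wild type groups were separated and exposed null library 4 lay within the naive null range. In TPM the groups overlapped in both genotypes, at 14.3 to 30.3 in exposed and 15.6 to 18.9 in naive null libraries and at 16.5 to 22.9 in exposed and 16.7 to 20.6 in naive wild type libraries. Gbp2 rose with 0.66 in null (SE 0.15, adjusted p = 0.0011) and 0.51 in wild type mice (SE 0.16, adjusted p = 0.016). Both calls were lost on the log2(TPM + 1) scale (0.25 in null and 0.12 in wild type mice, adjusted p = 0.18 and 0.55), and in edgeR the wild type call was lost without naive wild type library 2 (0.45, adjusted p = 0.057). Gbp3 did not pass (0.24, SE 0.22, in null and 0.15, SE 0.24, in wild type mice).

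The IRG GTPases are smaller relatives that act on the same vacuoles. In null mice 0 of 3 rose and 2 fell, and in wild type mice 0 rose and 1 fell. The shares of all tested genes were 21.4% higher and 23.4% lower in null and 20.1% and 20.2% in wild type mice. Irgm1 (chromosome 11, 48752795 to 48762510), a regulator of the family, stood at 6.93, 15.3, 8.51, 8.29 and 11.8 TPM in exposed null and 19.3, 17.8, 15.9, 18.4 and 18.4 TPM in naive null libraries, and at 7.67, 12.5, 11.1, 10.4 and 8.77 TPM in exposed and 19.2, 16.9, 19.5 and 17.1 TPM in naive wild type libraries. Exposed libraries lay below naive ones in both genotypes in TPM, with exposed null library 2 the nearest, and in CPM after TMM scaling the null groups overlapped (9.15 to 20.3 in exposed and 17.4 to 19.3 in naive libraries). Irgm1 fell by 0.45 on the log2 scale in null (SE 0.16, adjusted p = 0.026) and by 0.47 in wild type mice (SE 0.17, adjusted p = 0.033). The null call was lost without naive null 1 or exposed null 1, 3 or 4 (adjusted p = 0.05 to 0.078) and the wild type call without naive wild type 1 or 3 or exposed wild type 1 or 5 (adjusted p = 0.065 to 0.087).

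Igtp (Irgm3; chromosome 11, 58090382 to 58098417) fell by 0.47 in null mice (SE 0.16, adjusted p = 0.025), at 4.47 to 8.96 TPM in exposed and 8.46 to 14.8 TPM in naive libraries, which overlap, and lost the call without naive null 1 or exposed null 3 or 4 (adjusted p = 0.086, 0.053 and 0.077). In wild type mice it gave -0.40 (SE 0.17, adjusted p = 0.073), at 6.43 to 10.4 TPM in exposed and 13.8 to 16.5 TPM in naive libraries, and passed without exposed null library 2 (adjusted p = 0.045). It overlaps Irgm2 on the same strand, so reads may be shared. Ifi47 (Irg-47) did not pass (-0.0013 in null and 0.41 in wild type mice). Of 12 other GBP and IRG genes 11 were tested, of which 0 rose and 2 fell in null and 3 rose and 3 fell in wild type mice. Gbp8 fell by 0.98 on the log2 scale in null and by 1.15 in wild type mice, Irgm2 fell by 1.04 and by 1.11, and Gbp10 (0.40 in null and 1.04 in wild type mice) and Gbp4 (0.12 and 0.78) rose in wild type mice, neither passing in null mice.

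The antigen processing genes lie side by side on chromosome 17 (34400961 to 34420428) and supply peptides to MHC class I. In each genotype 0 of 3 rose, 1 fell and 2 did not pass, while on the log2(TPM + 1) scale limma called all 3 lower in each (medians of -0.51 in null and -0.55 in wild type mice, against -0.19 and -0.22 over all genes). Of all tested genes 41% were lower on that scale in each genotype. In edgeR 23.4% were lower in null and 20.2% in wild type mice. Psmb9 stood at 47.7, 58.8, 58.5, 50.8 and 56.9 TPM in exposed null and 76.7, 72.1, 77.9, 78.4 and 85.9 TPM in naive null libraries, and at 50.1, 53.2, 48.4, 45.3 and 48.1 TPM in exposed and 81.1, 79.4, 87 and 77.2 TPM in naive wild type libraries. The exposed libraries were below the naive ones in both genotypes in TPM, and in CPM after TMM scaling the null groups overlapped (41.0 to 51.7 in exposed and 51.2 to 56.3 in naive libraries). Psmb9 fell by 0.19 on the log2 scale in null (SE 0.07, adjusted p = 0.038) and by 0.37 in wild type mice (SE 0.08, adjusted p = 0.00045), and the null call was lost without any 1 of naive null 1, 3 or 5 or exposed null 1 or 4 (adjusted p = 0.056 to 0.12). That call was also lost with RLE scaling (adjusted p = 0.067), DESeq2 (0.055), counts divided by 4 (0.052) and only the groups of the comparison (0.062). Psmb8 (-0.04 in null and -0.10 in wild type mice) and Tap1 (-0.11 and -0.21), the peptide transporter, did not pass, but without exposed null library 2 Tap1 passed as lower in both (-0.32, adjusted p = 0.0046, in null and -0.21, adjusted p = 0.049, in wild type mice). Tap1 and Psmb9 overlap on opposite strands, and the sources used here do not state the strand setting of the counting. Of 11 further class I genes, 7 rose and 0 fell in null and 5 rose and 0 fell in wild type mice, led by the heavy chain genes H2-K1 (1.22 in null and 1.09 in wild type mice) and H2-D1 (0.64 and 0.68). Psme2, a proteasome activator subunit, rose in both (0.62 and 0.52), as did the light chain gene B2m (0.31 and 0.30), and Tapbp (tapasin), which loads peptides, rose in null mice (0.27) and gave 0.15 in wild type mice (adjusted p = 0.056).

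The genotype comparisons asked whether these genes differ between ICAM-1 null and wild type mice, where the loss of ICAM-1 and other differences between the lines cannot be told apart. Few members did, and few of all tested genes did. Whether the share of members called was below that of all genes was not tested. In naive null mice 1 of 38 was higher and 0 lower, against 4.31% and 2.55% of all tested genes (6.86% in either direction). The same counts were 5 and 1 at an unadjusted p under 0.05 (10.5% and 6.78% of all tested genes), 1 and 0 by DESeq2 (5.25% and 3.45%), and 0 and 0 by limma on log2(TPM + 1) (3.32% and 3.83%). In exposed mice 2 were higher and 0 lower in null mice, against 8.48% of all tested genes in either direction, 4.43% higher and 4.04% lower. There the counts were 6 and 3 at an unadjusted p (10% and 9.89% of all tested genes), 2 and 0 by DESeq2 (5.51% and 5.14%) and 2 and 0 by limma (3.66% and 3.88%). The limma calls were Oasl1 and Ifi202b (0.71 on the log2(TPM + 1) scale, adjusted p = 0.025), and Gbp5 did not pass there. Without overlap between the groups in TPM, 2 members (Ifi205 and Tap1) were higher and 1 (Ifi35) lower in naive null mice, against 4.48% and 6.77% of all tested genes, and 1 (Oasl1) higher and 0 lower in exposed null mice, against 3.03% and 3.18%. In CPM after TMM scaling 3 members (Ifih1, Ifi205 and Tap1) were higher and 0 lower in naive null mice, against 6.59% and 4.7%, and 1 (Oasl1) higher and 0 lower in exposed null mice, against 3.96% and 3.13%.

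Ifih1, the gene higher in naive null mice, stood at 32.2 to 41.6 CPM after TMM scaling in null and 23.1 to 31.2 CPM in wild type libraries, a difference of 0.41 on the log2 scale (SE 0.09, adjusted p = 0.0034). All 5 null libraries were above all 4 wild type libraries. Ifih1 did not pass in exposed mice (0.11, adjusted p = 0.51). On the log2(TPM + 1) scale the naive difference was 0.29 (adjusted p = 0.064), and with naive wild type libraries 1, 2 and 3 left out together, it was 0.20 (adjusted p = 0.91), in a fit with 0.821% of all tested genes higher and 0.53% lower in naive null mice.

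In exposed mice Oasl1 and Gbp5 were higher in null mice. Oasl1, with the TPM values given above, was higher in all 5 exposed null libraries than in all 5 exposed wild type libraries, and differed by 1.24 on the log2 scale (SE 0.33, adjusted p = 0.022). The call was lost without exposed wild type library 1 (1.06, adjusted p = 0.056) and without exposed null library 5 (1.04, adjusted p = 0.071). In naive mice Oasl1 gave 0.95 (SE 0.37, adjusted p = 0.15).

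Gbp5 gave 0.83 in exposed mice (SE 0.24, adjusted p = 0.031), with 12.9 to 35.7 TPM in null and 8.67 to 15 TPM in wild type libraries. The ranges overlapped, and without exposed null library 2, the highest, the value was 0.53 (adjusted p = 0.12). The call was also lost on the log2(TPM + 1) scale (0.66, adjusted p = 0.09), on the log2(TPM + 0.1) scale (0.70, adjusted p = 0.1) and with the replicate number as a block (0.82, adjusted p = 0.06). Leaving out exposed wild type 1, 3 or 5 or exposed null 5 also ended the call (adjusted p = 0.061, 0.063, 0.075 and 0.057). Gbp3 passed as higher in exposed null mice without exposed null library 3 (0.66, adjusted p = 0.04), Psmb9 as higher without exposed null library 1 (0.25, adjusted p = 0.037), Igtp as lower without exposed null library 2 (-0.54, adjusted p = 0.038) and Rigi as lower without exposed wild type library 5 (-0.30, adjusted p = 0.018).

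**Figure D3:**
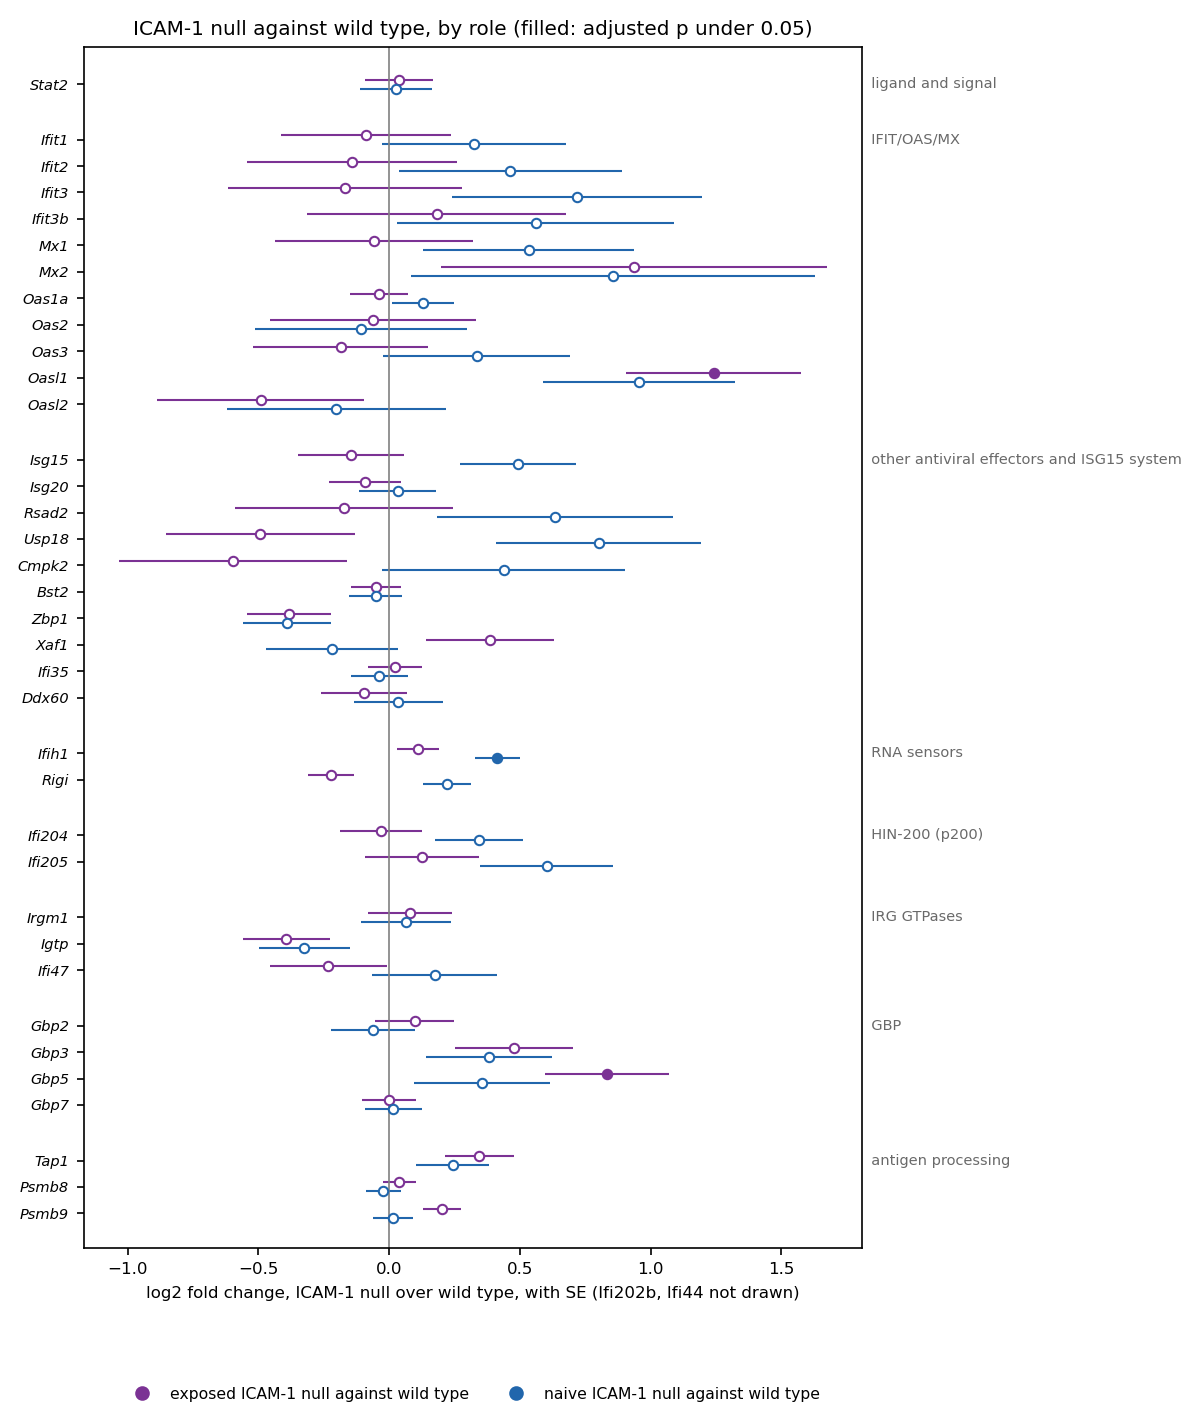
Log2 fold change of ICAM-1 null over wild type libraries with its SE for 36 members, grouped by role, in exposed and in naive mice; filled points passed an adjusted p under 0.05. The filled points are Oasl1 and Gbp5 in exposed mice and Ifih1 in naive mice (Ifi202b and Ifi44 are not drawn, and Ifnb1 was not tested).

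Markers and signalling genes also differed between the lines. Of all tested genes 4.43% were higher and 4.04% lower in exposed null mice, and 4.31% and 2.55% in naive null mice. Neutrophil markers summed to 125 to 188 TPM in exposed null against 86.0 to 117 TPM in exposed wild type libraries. In naive mice they summed to 170 to 185 TPM in null against 66.9 to 94.1 TPM in wild type libraries. Ly6g, 1 of these markers and picked after its values were seen, was at 0.65 TPM or less in every library, so the sums rest on other genes. Of 7 neutrophil markers tested, 3 were higher and 2 lower in exposed null mice, and 3 were higher and 0 lower in naive null mice. Of 14 alveolar macrophage markers 3 were higher and 2 lower in exposed null mice, and 5 were higher and 1 lower in naive null mice. In exposed mice all 5 red cell markers were lower in null mice. Of 10 epithelial markers 1 was higher and 2 lower in exposed null mice, and 1 was higher and 0 lower in naive null mice. Of 6 plasmacytoid dendritic cell markers tested, 2 were lower in exposed and 1 in naive null mice, with 0 higher. In naive null mice 1 dendritic cell marker was lower, and 1 monocyte and 1 T and NK cell marker were higher. In exposed null mice 1 monocyte marker was lower. The part of these cells in the differences of Oasl1, Gbp5 and Ifih1 was not tested. Of the 11 receptor and signalling genes 3 were higher and 2 lower in exposed null mice and 3 higher and 1 lower in naive null mice. Those higher were Ifnar1 (0.77 in exposed and 0.45 in naive mice), Il10rb (0.39 and 0.42) and Ifngr1, a chain of the type II receptor (0.59 and 0.77). Those lower were the receptor kinase gene Tyk2 (-0.41 in exposed and -0.27 in naive mice) and, in exposed mice, Ifngr2, the other chain of the type II receptor (-0.37). Tlr3, a receptor for double-stranded RNA, was lower in null mice in both states (-2.15 in exposed and -2.06 in naive mice), as was Irf5 (-0.44 and -0.82), and Ikbke, a kinase related to TBK1, was higher (1.44 and 1.14). Tank was higher in naive null mice (0.63), where Samhd1 (-0.18) and Ifi203 (-0.72) were lower. The class I genes H2-D1 (0.28 in exposed and 0.31 in naive mice) and B2m (0.30 and 0.28) were higher in null mice in both states. In exposed null mice H2-K1 (0.36), Gbp8 (0.59) and the inhibitor Socs1 (0.83, adjusted p = 0.0062) were higher, and the phosphatase gene Ptpn6 (-0.35) was lower.

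The interaction, which sets the exposure change in null mice against that in wild type mice, passed for 0 of 38 members in edgeR, against 0.332% of all tested genes. At an unadjusted p under 0.05, 0 were higher and 5 lower (3.87% and 5.98% of all tested genes), and 0 passed in either direction by DESeq2 (0.542% and 0.629%) or by limma on log2(TPM + 1) (0.366% and 0.171%). The median over the members was -0.15, against -0.03 over all genes. Isg15 gave -0.64 (SE 0.30, adjusted p = 0.49), Usp18 -1.29 (SE 0.53, adjusted p = 0.41) and Rigi -0.44 (SE 0.13, adjusted p = 0.18). Rigi passed when exposed wild type library 5 was left out (-0.52, adjusted p = 0.044).

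Within groups the members varied unevenly. In exposed null mice library 2 was the highest of the group for 4 of 4 GBP, 3 of 3 HIN-200 and 3 of 3 IRG genes, and for 5 of 11 IFIT, OAS and MX genes. Its summed GBP level was 93.2 TPM, against 45.6 to 64.8 TPM in the other 4 libraries. In exposed wild type mice library 1 was the lowest for 8 of 11 IFIT, OAS and MX genes and library 2 was the highest for 3 of 4 GBP genes. In naive wild type mice library 4, the most deeply sequenced, was the highest for 7 of the 11 IFIT, OAS and MX genes, with a sum of 45.1 TPM, and library 2 was the lowest for 8, with 29.1 TPM. In naive null mice library 2 had the highest sum of these 11 genes, 50.8 TPM against 35.6 to 40.6 TPM in the others. Naive wild type libraries 1, 2 and 3 were the shallowest of the series, and the part of depth in these differences was not tested.

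**Figure D4:**
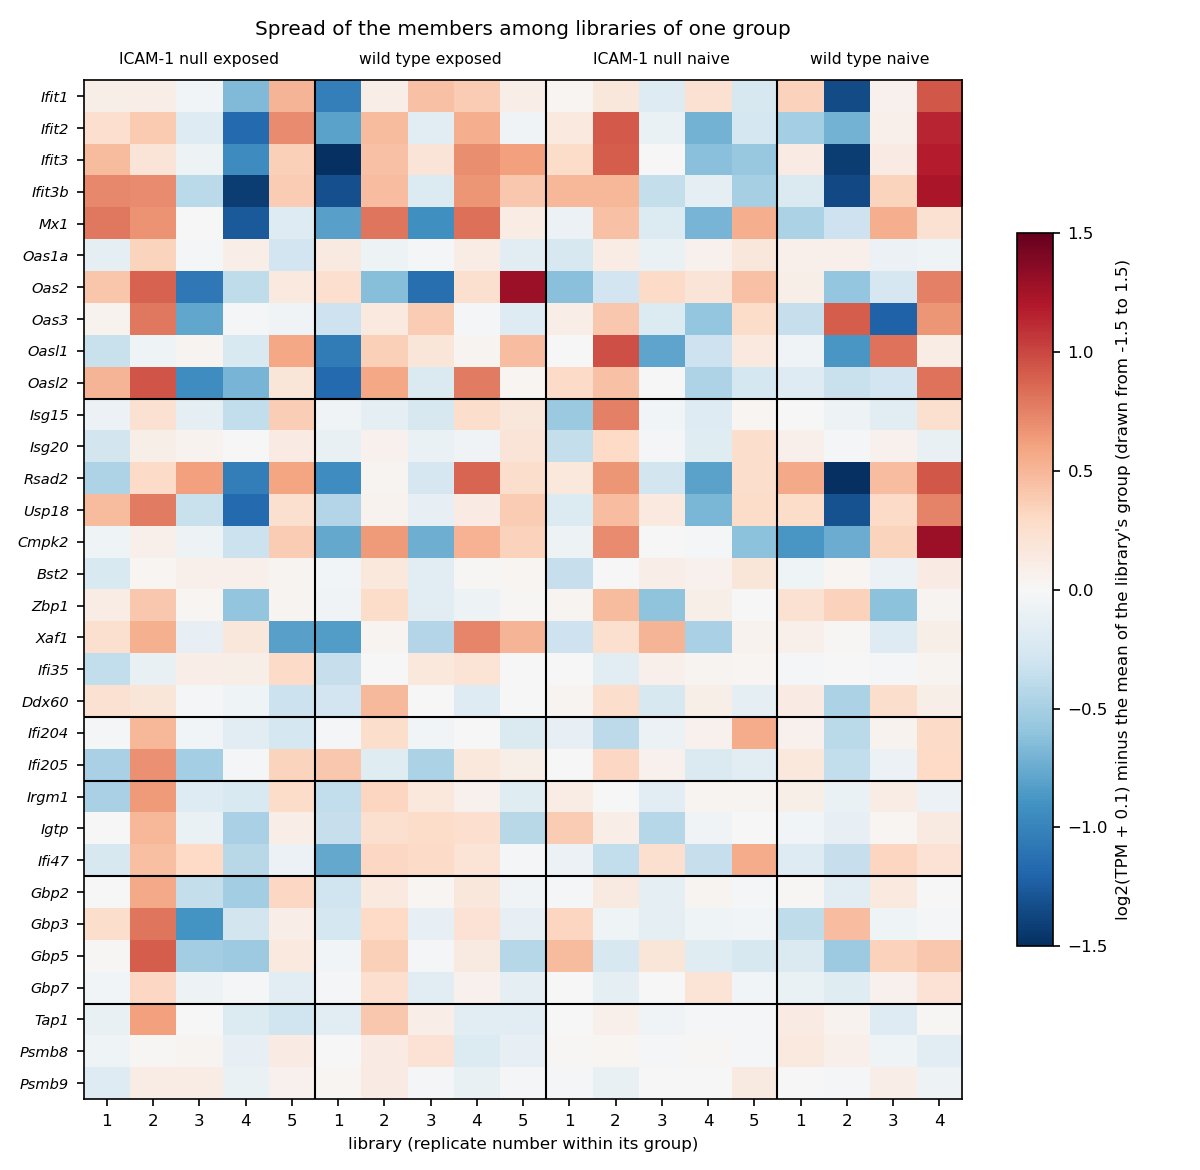
Log2(TPM + 0.1) of 32 members minus the mean of the library's own group, by library, with rows in role order from the IFIT, OAS and MX genes at the top, through the other antiviral, HIN-200, IRG and GBP genes, to antigen processing at the bottom. Exposed null library 2 is red across the HIN-200, IRG and GBP rows, naive wild type library 4 is red and library 2 blue across most IFIT rows, and Psmb8 and Psmb9 vary little in any group.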

How the data were processed

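Poly(A) RNA of lavage cell pellets from 19 mice was sequenced as paired reads of 150 bases, with 20 M reads planned per sample, per the labels' protocols. The authors deposited gene tables of estimated counts and of TPM, made with STAR, StringTie version 2 and build GRCm39 per the submitters' processing notes. Options and strand setting: not given in the sources used here. Estimated counts were rounded to whole numbers and totalled 32.8 to 80.3 M per library. A fragment was assumed to be worth 4 counts, so the floor of 3 fragments is 12 counts. Intervals and floors cover counting error only.

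Counts were filtered with filterByExpr (minimum count 10, minimum total 15) and fitted in edgeR 4.0.16 (R 4.3.3) with TMM scaling and the quasi-likelihood test over all 4 groups in 1 fit, two-sided, with Benjamini-Hochberg adjustment over 20501 genes and a threshold of 0.05. The 5 comparisons set exposed mice against naive mice within a genotype, null mice against wild type mice within a state, and the exposure changes of the genotypes against each other. Nothing in the labels says that the mice were matched, and a p-value reflects only how much the sampled mice varied. No 2 libraries were identical. The alternatives were RLE scaling, no filter, counts divided by 4, DESeq2 1.42.0, limma 3.58.1 on log2(TPM + 1) and log2(TPM + 0.1), only the groups of a comparison, a replicate block, each library left out, and naive wild type library 4 as the only one of its group, which was added after seeing the data. The scripts were tested on simulated data. Descriptions and motif searches used Python 3.11.15.

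The members, the pathway lists and the marker lists were chosen with earlier results of these data known. All 39 members are named. Of each pathway list and comparison the 4 genes with the smallest adjusted p among those called are named, with Icam1 and Tnf as checks of the labels. Ifng, Irf9, Siglech, Ly6g, Ngp and Camp were named after their values were seen.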

Additional observations from a re-analysis of the deposited data

Results flagged for a closer look

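Of 153 sets of 1 member in 1 group, 10 held a library set apart from the rest by its gap, and chance gives about 5% of sets. In exposed null mice library 2 stood apart for Ifi204 at 42.9 TPM (25.3 to 29.6 TPM in the others), for Gbp7 at 18.1 TPM (12.9 to 14.4 TPM) and for Tap1 at 44.0 TPM (23.4 to 28.9 TPM). Bst2 was low in exposed null library 1 at 88.6 TPM (106 to 110 TPM in the others), and Rigi was low in exposed null library 5 at 9.16 TPM (10.3 to 10.7 TPM in the others). In exposed wild type mice Ifnb1 stood at 0.581 TPM in library 2, against 0.061 TPM or less in the others. In naive null mice Gbp3 stood at 7.53 TPM in library 1 (5.39 to 5.82 TPM in the others) and Ifi202b at 0.0511 TPM in library 4, with 0 in the others. In naive wild type mice library 4 stood apart for Stat2 at 57.4 TPM (41.0 to 43.6 TPM in the others) and for Oasl2 at 4.67 TPM (2.06 to 2.27 TPM in the others). No member moved in opposite directions without overlap in the 2 genotypes.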

How the results depend on the processing

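Of 37 member results that passed, 27 kept the call in all 19 fits that left out 1 library, with 0 to 4 lost per fit. Over those fits the members that fell in null mice numbered 4 to 11 (8 with all libraries), those higher in exposed null mice 0 to 3 (2), those lower there 0 to 1 (0), and those lower in the interaction 0 to 1 (0). Of the 20352 to 21111 genes tested in these fits, 4434 to 4902 fell in null mice. In exposed null mice 759 to 924 were higher and 682 to 802 lower, and 14 to 48 were lower in the interaction. The IFIT, OAS and MX genes that rose in null mice numbered 1 to 2 (1), those that fell 0 to 1 (0) in null and 0 to 1 (0) in wild type mice, and the GBP genes that rose in wild type mice 1 to 2 (2). Of all tested genes 4005 to 4421 rose in null mice over these fits. In wild type mice 3620 to 4141 rose and 3662 to 4214 fell. On both TPM scales limma gave 14 members lower in null and 15 in wild type mice, 2 IFIT, OAS and MX genes lower in each, 1 GBP gene higher in each, and 0 higher in naive null mice, and on log2(TPM + 0.1) 1 higher in exposed null mice. Of all tested genes on log2(TPM + 1), 41% were lower in each genotype, and 10.9% were higher in null and 11% in wild type mice. On log2(TPM + 0.1) 8383 of 20501 genes were lower in null and 8315 in wild type mice. There 715 were higher in exposed null mice and 633 in naive null mice. Signs turned on log2(TPM + 1) and log2(TPM + 0.1) for Oas1a in wild type mice (-0.28 and -0.30), Bst2 in null (-0.23 and -0.23) and wild type mice (-0.27 and -0.27) and Ifih1 in null mice (-0.053 and -0.057), where the median of all genes was also below 0. With only the groups of the comparison 5 members fell and 2 IFIT, OAS and MX genes rose in null mice, and 2 members were higher in naive null mice. In those fits 4699 of 18262 genes fell and 4385 rose in null mice, and 1065 of 18692 were higher in naive null mice. DESeq2 and counts divided by 4 also gave 2 IFIT, OAS and MX genes that rose in null mice, where 4798 of 20495 and 4487 of 15595 genes rose. With library 4 alone as naive wild type, a lone sample assumed to vary like the other groups, 5 members, 0 IFIT, OAS and MX genes and 1 GBP gene rose in wild type mice, 2 IFIT, OAS and MX genes rose in null mice, and 0 members were higher in naive null mice. Members below without overlap numbered 3 in null and 6 in wild type mice in CPM after TMM scaling, against 8 and 12 in TPM, and 0 against 1 in naive null mice. The shares of all tested genes were 18.4% and 16.8% in CPM, against 32.7% and 32% in TPM, and 4.7% against 6.77% in naive null mice. Except where stated, the cause was not tested.

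Replicate numbers did not pair the samples: the deviations of 27 same-numbered pairs correlated between -0.048 and 0.073, and 4 of 19 libraries correlated best with their own number. With the replicate block 2 members were higher in naive null mice (Rigi passed, 0.27, adjusted p = 0.041) and 1 in exposed null mice. Of 20501 tested genes 875 were higher in naive null and 865 in exposed null mice with that block. Depth limits Ifnb1, Ifi202b, Ifi44 and Mx2, the lowest members, where few fragments stand behind a value.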
